A study of Arabidopsis thaliana with 12 samples.

Results

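Inflorescence meristems of the pip2 mutant were set against those of col0, the wild-type Arabidopsis thaliana background, with both genotypes held in low air humidity. The comparison used 3 pip2 libraries and 3 col0 libraries out of 12 in all, taken by their genotype and humidity labels, and every difference is pip2 minus col0 across all genes tested. The other 6 libraries came from the same genotypes in high humidity and serve only to show where the low-humidity difference departs from the high-humidity one. The mutant is pip2 in the genotype label, pip2d in the sample titles and pip2;5 in the design text, and is called pip2 here. The kind of mutation, the number of mutant lines, the growth stage, the humidity in percent and the number of meristems per library are not given in the sources used here. Nothing states that replicates came from separate plants or days, so the p-values measure the spread between these samples, which may be technical.

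PIP2;5 is a plasma membrane aquaporin, a channel protein that lets water cross the cell membrane. Plant genomes hold many such channels, with PIP proteins in the plasma membrane and TIP proteins in the vacuole membrane, and both are known to take part in water uptake during cell growth. Dry air draws water from exposed tissue, and plants short of water are known to raise protective proteins, proline and stress hormones and to slow the loosening of cell walls. An inflorescence meristem is the dividing tip of a flowering stem, where stem cells give rise to flower buds.

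Levels are given as CPM, read counts scaled to a common library size with edgeR's TMM factors. Each low-humidity pip2 library held 19482546 to 20030505 counted reads, and each col0 library 18010889 to 20611944. The first principal component of these 6 libraries carried 33.4% of the variance and set all 3 pip2 libraries apart from all 3 col0 libraries. Of 21897 genes tested with edgeR, 610 passed an adjusted p of 0.05, which is 2.79% of them. Among these, 187 genes were higher in pip2 (0.854%) and 423 were lower (1.93%). The counts for gene lists below are to be read beside these shares. Where groups are said not to overlap in a gene that passed, this describes its values and is not separate support. With the replicate number as a block, 974 genes passed. Most differences were small: the median size was 0.62 on the log2 scale among the 187 higher genes and 0.45 among the 423 lower genes, and 43 higher (0.196%) and 64 lower genes (0.292%) reached a 2-fold change. The count was sensitive to single libraries, with 362 genes without pip2 replicate 1, 378 without col0 replicate 1 and 397 without col0 replicate 3. All genes of the deposited count table had at least 1 count in col0 low replicate 1, whereas 884 to 1278 genes were at 0 in each other library, so genes silent in that single library are not analysed here. A gene that pip2 switched on from silence could therefore be missed.

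**Figure D1:**
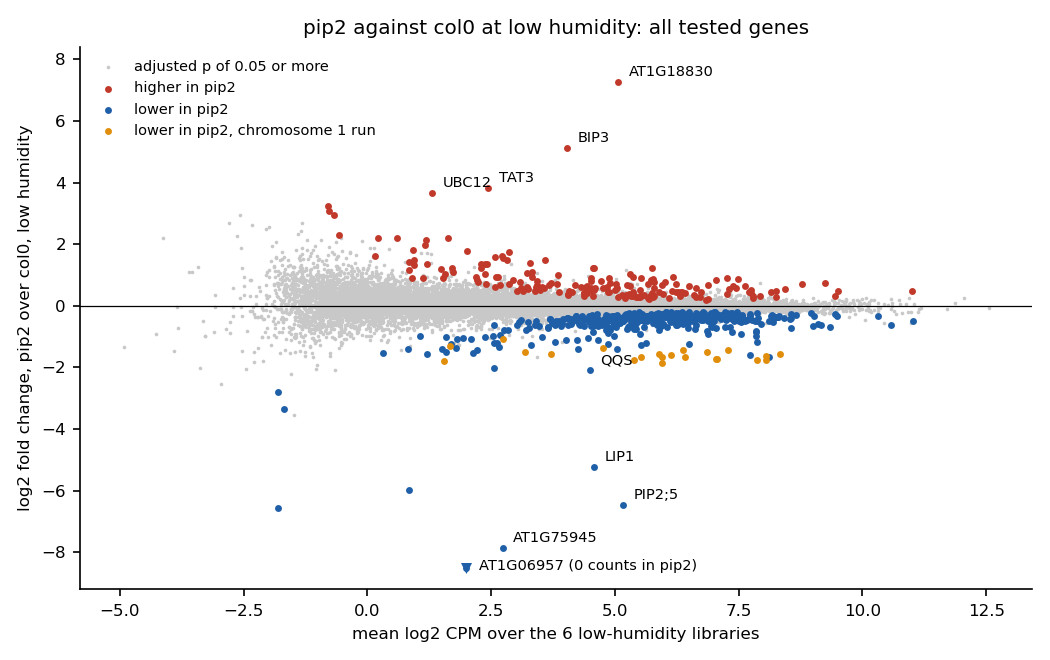
Log2 fold change of pip2 over col0 at low humidity (vertical axis) against mean log2 CPM over the 6 low-humidity libraries (horizontal axis), 1 point per tested gene. Red points are the 187 genes that were higher in pip2, blue and orange points the 423 that were lower, orange marks 22 neighbours on chromosome 1, and a triangle marks AT1G06957, drawn at the edge because it had 0 counts in pip2.

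The mutated gene was examined first. PIP2;5 (AT3G54820) had 1.18, 0.623 and 0.548 CPM in the pip2 libraries, against 70.4, 71.7 and 70.0 CPM in the col0 libraries. The log2 fold change was -6.48 ± 0.15 (SE, edgeR adjusted p = 5.34e-12), so the genotype labels matched the transcript in all 6 libraries. On the per-length scale, PIP2;5 averaged 0.375 ± 0.117 TPM in pip2 and 53.8 ± 0.599 TPM in col0 (SD, n = 3 each), which made it a mid-level member of its family in col0, below PIP2;7 at 1312 ± 33.9 TPM and above PIP2;4 at 10.7 ± 2.55 TPM. Of the 20 tested genes nearest to PIP2;5, only BME3, a GATA-type zinc finger gene next to it, passed the test, at -0.39 ± 0.06 (edgeR adjusted p = 0.00204).

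Several other aquaporin transcripts were lower by small amounts, mainly within the PIP family. Of 13 PIP genes tested, 4 fell, counting PIP2;5 itself, none rose, and 12 of the 13 values were negative, with a median log2 fold change of -0.24 against -0.0028 over all genes tested. PIP2;7, the most abundant PIP transcript, had 1110.8, 1135 and 1114 CPM in pip2, against 1407, 1475 and 1382 CPM in col0 (log2 fold change -0.34 ± 0.07, edgeR adjusted p = 0.0141). PIP1;3 had 349.7, 359.5 and 366 CPM in pip2, against 432, 437 and 465 CPM in col0 (-0.31 ± 0.06, edgeR adjusted p = 0.00956). PIP1;4 fell by 0.25 ± 0.05 (edgeR adjusted p = 0.0173). The groups did not overlap in any of the 3, but PIP1;3 lost its call without col0 replicate 3, PIP2;7 without pip2 replicate 3 or col0 replicate 2, and PIP1;4 when any low-humidity library except pip2 replicate 3 was left out. Reads of the near-identical PIP2;2 and PIP2;3 may be shared, and neither passed. Among 15 genes of the other aquaporin families the median was -0.01, with 6 positive and 9 negative values. In that list the vacuolar channels TIP2;1, at -0.32 ± 0.06 (edgeR adjusted p = 0.00558), and TIP1;1, at -0.28 ± 0.06 (edgeR adjusted p = 0.0323), also fell. TIP1;1 lost its call whichever of the 6 libraries was left out. In bulk RNA such as this, fewer cells of a type and less RNA per cell cannot be told apart.

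Several genes of protein folding and export at the endoplasmic reticulum (ER), the compartment where secreted proteins are made, rose. Of these, AT1G18830 and BIP3 had the largest rises among the named genes. The others rose less than several genes outside this group. AT1G18830 and SARA1A were not on the ER gene list. They were named for the size of their rise and were grouped here after their values were seen. When unfolded proteins build up in the ER, plants are known to switch on the transcription factor bZIP60 and chaperones such as BiP. This reaction is called the unfolded protein response. AT1G18830, a WD40-repeat gene that the RefSeq table also lists under the synonym SEC31A, a name used for an outer coat protein of the vesicles that carry cargo out of the ER, had 72.1, 67.0 and 60.8 CPM in pip2, against 0.489, 0.285 and 0.5 CPM in col0. Its log2 fold change was 7.25 ± 0.16 (edgeR adjusted p = 3.23e-12), the largest rise among all genes that passed. BIP3, a stress-inducible BiP chaperone, had 31.0, 34.7 and 29.4 CPM in pip2, against 1.42, 0.514 and 0.75 CPM in col0 (5.11 ± 0.30, edgeR adjusted p = 1.58e-07). Both genes were near silent in every col0 library. SARA1A, a small GTPase of the same vesicle coat, had 11.6, 11.5 and 10.6 CPM in pip2, against 2.79, 3.6 and 3.55 CPM in col0 (1.76 ± 0.15, edgeR adjusted p = 8.98e-06). BZIP60 had 72.7, 71.6 and 62.6 CPM in pip2, against 37.3, 43.2 and 41.1 CPM in col0 (0.77 ± 0.07, edgeR adjusted p = 4.08e-05). PDI6, a protein disulfide isomerase that forms bonds in folding proteins, rose by 0.56 ± 0.08 (edgeR adjusted p = 0.00133).

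The abundant ER chaperones did not rise. Of 14 genes on the ER list, 3 rose (BIP3, BZIP60 and PDI6), 1 fell, and 10 of the 14 values were negative, with a median of -0.12. The constitutive BIP1 had 618, 641 and 588 CPM in pip2, against 775, 701 and 785 CPM in col0 (-0.29 ± 0.09, edgeR adjusted p = 0.104). The membrane chaperone CNX1 fell by 0.33 ± 0.07 (edgeR adjusted p = 0.0263), a call lost without pip2 replicate 1 or 3 or col0 replicate 1 or 3. Per length, BIP3 reached 22.8 ± 1.81 TPM in pip2 and 0.648 ± 0.371 TPM in col0 (SD, n = 3 each), so it stayed far below BIP1, at 345 ± 16.4 TPM in pip2 and 415 ± 33.3 TPM in col0. All 5 of the genes that rose here also passed at high humidity, where the log2 fold change was 7.10 for AT1G18830, 3.45 for BIP3, 1.0 for SARA1A, 0.50 for BZIP60 and 0.46 for PDI6.

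The 250 bases upstream of each gene's annotated start were searched on both strands for short motifs, in 21844 of the tested genes, with sequence from the RefSeq genome TAIR10.1. The G-box, CACGTG, a site that bZIP and bHLH transcription factors are known to bind, was present in 35 of 187 genes that rose (18.7%), in 26 of 420 that fell (6.19%) and in 7.12% of all promoters searched. Its inner part ACGTG, which every G-box also holds and which is the core of the ABA-responsive element, was present in 43.9% of the genes that rose, 23.3% of those that fell and 22.9% of all. ACGTG was found in all 4 ER genes that passed, of which 3 rose and 1 fell. Among genes that rose, it was in 6 of 11 jasmonate, 5 of 9 indole glucosinolate and 3 of 5 dehydration and cold genes. Among genes that fell, it was in 1 of 7 heat shock and 3 of 7 sulfur-status genes. It was also in 2 of 7 expansin-list and 1 of 6 brassinosteroid-list genes that fell. The ER stress element, CCAAT and CCACG held apart by 9 bases, which was chosen after the values were seen, was in 5 promoters of genes that rose (2.67%) and in 0.394% of all, and its second form, ATTGG and CCACG held apart by 1 base, was in none of the genes that rose and in 0.0732% of all. The evening element AAAATATCT was in 5.35% of genes that rose and 2.42% of all. The shares among genes that rose and among all promoters were 9.63% and 9.39% for the heat shock core GAANNTTC, 40.1% and 43.9% for the W-box core TTGAC, 11.8% and 12.4% for the DRE core CCGAC, 12.8% and 10.6% for GAGACA, 0% and 1.87% for the GCC-box GCCGCC, and 4.81% and 6.09% for the telo-box AACCCTA. A match is a description of letters and not a binding site, and no share was tested. The 7 sequences shown are the promoters, clear of other annotated genes, of all named genes that rose and held a G-box, with the motif in capitals and the last base next to the annotated start.
BIP3 (chr1:2931851-2932100, minus strand): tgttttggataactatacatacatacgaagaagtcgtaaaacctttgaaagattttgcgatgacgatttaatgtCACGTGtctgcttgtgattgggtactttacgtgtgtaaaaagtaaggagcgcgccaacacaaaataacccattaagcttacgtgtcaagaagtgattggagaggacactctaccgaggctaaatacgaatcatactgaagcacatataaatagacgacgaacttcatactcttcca
SARA1A (chr1:2964773-2965022, plus strand): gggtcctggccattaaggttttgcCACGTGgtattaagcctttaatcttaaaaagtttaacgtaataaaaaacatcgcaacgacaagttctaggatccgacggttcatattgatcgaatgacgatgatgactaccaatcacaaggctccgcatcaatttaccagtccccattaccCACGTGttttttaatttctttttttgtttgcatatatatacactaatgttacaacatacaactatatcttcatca
BZIP60 (chr1:16137464-16137713, minus strand): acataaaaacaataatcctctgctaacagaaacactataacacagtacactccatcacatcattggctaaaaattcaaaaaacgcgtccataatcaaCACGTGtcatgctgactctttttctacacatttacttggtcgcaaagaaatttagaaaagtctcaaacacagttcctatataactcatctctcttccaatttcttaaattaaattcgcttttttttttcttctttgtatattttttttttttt
PDI6 (chr1:29126398-29126647, plus strand): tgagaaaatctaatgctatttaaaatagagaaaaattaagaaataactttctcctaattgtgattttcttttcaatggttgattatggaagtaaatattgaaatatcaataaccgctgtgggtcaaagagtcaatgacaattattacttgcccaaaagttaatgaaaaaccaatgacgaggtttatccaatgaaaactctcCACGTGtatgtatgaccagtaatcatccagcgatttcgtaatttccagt
JAZ2 (chr1:28150447-28150696, minus strand): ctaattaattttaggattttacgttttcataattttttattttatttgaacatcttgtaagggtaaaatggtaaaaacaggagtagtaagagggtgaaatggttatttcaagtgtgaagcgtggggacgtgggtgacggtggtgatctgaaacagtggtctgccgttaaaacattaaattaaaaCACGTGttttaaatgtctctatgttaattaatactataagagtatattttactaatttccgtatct
NAC019 (chr1:19698483-19698732, minus strand): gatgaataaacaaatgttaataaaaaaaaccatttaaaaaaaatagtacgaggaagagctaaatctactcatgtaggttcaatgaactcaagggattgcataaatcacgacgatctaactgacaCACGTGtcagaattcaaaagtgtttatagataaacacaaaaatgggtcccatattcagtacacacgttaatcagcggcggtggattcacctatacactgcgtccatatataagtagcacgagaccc
GOLS1 (chr2:19370479-19370728, minus strand): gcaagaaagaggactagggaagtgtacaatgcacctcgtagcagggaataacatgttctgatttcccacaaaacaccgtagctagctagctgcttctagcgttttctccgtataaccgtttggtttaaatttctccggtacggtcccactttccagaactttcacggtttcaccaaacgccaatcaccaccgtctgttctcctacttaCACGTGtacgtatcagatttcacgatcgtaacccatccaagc
In PDI6 the G-box began 49 bases before the start and its first 4 bases formed the end of the ER stress element. In SARA1A there were 2 matches, beginning 226 and 75 bases before the start.

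Cytosolic heat shock genes went the other way. Heat shock factors are known to switch on chaperones that keep proteins from clumping in the cytosol. Of 22 heat shock and chaperone genes tested, 7 fell and none rose, 19 values were negative, and the median log2 fold change was -0.54. HSFA2, a factor that sustains the heat response, had 1.92, 2.6 and 2.19 CPM in pip2, against 6.45, 6.39 and 6.65 CPM in col0 (-1.54 ± 0.17, edgeR adjusted p = 0.000105). HSP70, a stress-induced chaperone, had 32.3, 28.7 and 28.3 CPM in pip2, against 70.9, 58.5 and 77.1 CPM in col0 (-1.21 ± 0.15, edgeR adjusted p = 0.000307). All pip2 libraries lay below all col0 libraries in both genes. HSP101, which dissolves protein clumps, had 18.5, 17.0 and 17.2 CPM in pip2, against 28.8, 27.2 and 27.7 CPM in col0 (-0.67 ± 0.09, edgeR adjusted p = 0.000825). The other members that fell were the small heat shock protein AT1G07400, the co-chaperones HOP3 and FES1A, and the immunophilin ROF1, by 0.41 to 1.19. Small heat shock genes such as HSP17.6II stayed under 1 CPM in all 6 libraries and could not be compared. The difference was also present at high humidity, with 6 of the 22 genes lower there and a median of -0.51. Between 4 and 7 of the genes passed when a low-humidity library was left out, with 4 without col0 replicate 1 or 3.

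**Figure D2:**
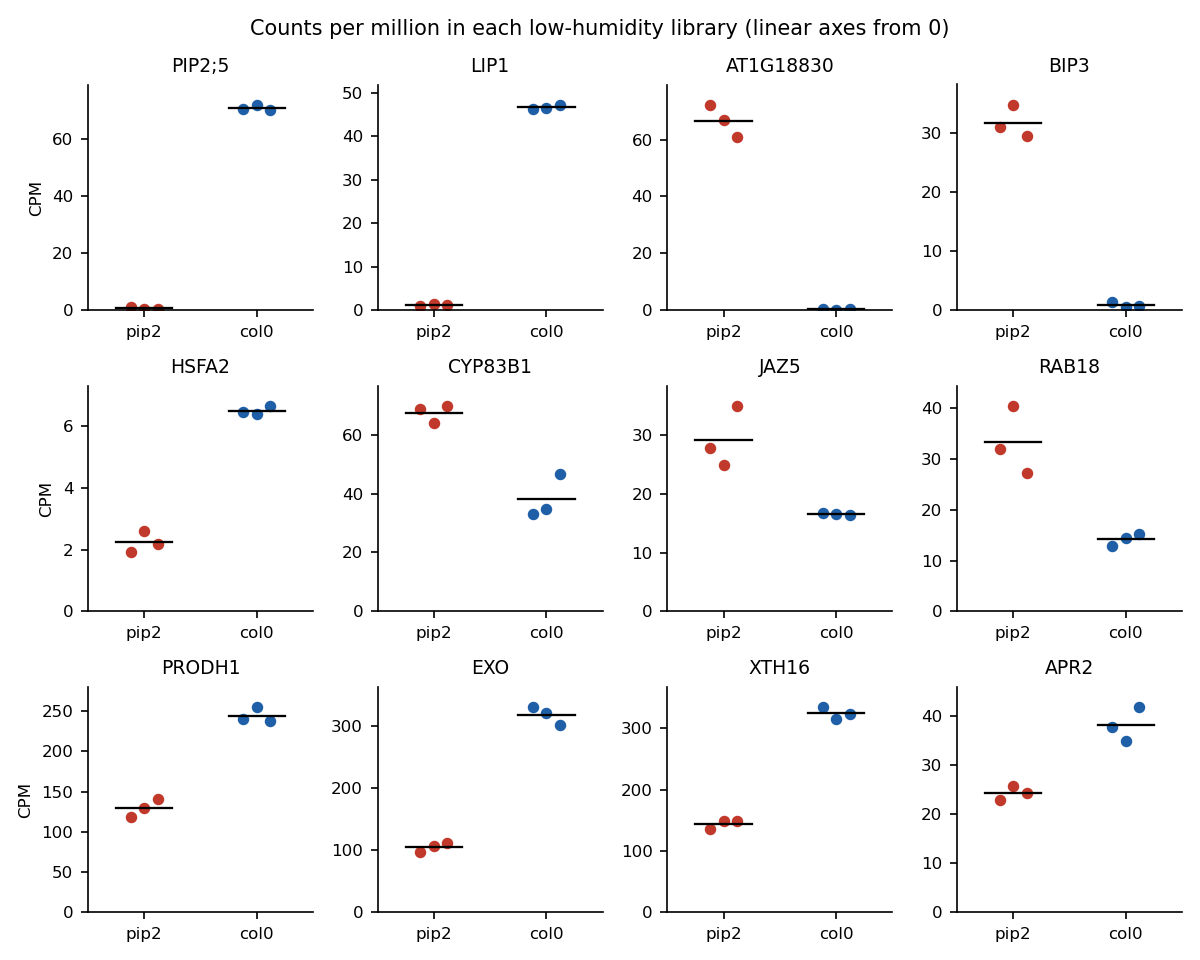
CPM of 12 genes (vertical axes, linear and from 0) in each low-humidity library, with pip2 in red and col0 in blue, 1 point per library and a bar at the mean. In every panel the 3 pip2 libraries lie wholly above or wholly below the 3 col0 libraries. All 12 genes were picked from those that passed the test, some by a rule that requires no overlap, so this separation follows largely from the choice.

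Genes of the jasmonate pathway were higher in pip2. Jasmonate is a stress hormone made from membrane lipids by lipoxygenase (LOX), allene oxide cyclase (AOC) and OPR3, and JAZ proteins repress its response and are themselves induced by it. Of 27 genes tested, 11 rose and none fell, 26 of the 27 values were positive, and the median was 0.44. JAZ5 had 27.8, 24.9 and 35.0 CPM in pip2, against 16.7, 16.6 and 16.5 CPM in col0 (0.81 ± 0.12, edgeR adjusted p = 0.00128). JAZ2 had 62.4, 60.1 and 61.8 CPM in pip2, against 43.1, 46.5 and 49.8 CPM in col0 (0.40 ± 0.07, edgeR adjusted p = 0.00311). No pip2 library overlapped the col0 libraries in either repressor, and JAZ9 and JAZ12 also rose. Among the response genes, TAT3, an aminotransferase induced by wounding and jasmonate, had 16.4, 10.1 and 3.93 CPM in pip2, against 0.684, 0.571 and 0.85 CPM in col0 (3.83 ± 0.50, edgeR adjusted p = 0.000609). The pip2 libraries thus differed several-fold among themselves in this gene, yet the lowest of them stood above every col0 library. CORI3, a coronatine-induced lyase, had 62.2, 87.4 and 94.6 CPM in pip2, against 45.2, 49.6 and 49.6 CPM in col0 (0.76 ± 0.12, edgeR adjusted p = 0.00349), and the vegetative storage protein VSP2 rose by 0.74 ± 0.13 (edgeR adjusted p = 0.00606). Of the synthesis enzymes, OPR3 rose by 0.30, LOX3 by 0.32, LOX4 by 0.56 and AOC2 by 1.11. LOX3 lost its call when any low-humidity library except pip2 replicate 1 was left out. AOS, the committed step, averaged 22.3 ± 1.28 CPM in pip2 and 20.9 ± 1.57 CPM in col0 (SD, n = 3 each), with overlapping groups. Leaving out a low-humidity library left 5 to 9 jasmonate genes past the test, with 5 without pip2 replicate 3 or col0 replicate 1, 6 without col0 replicate 3 and 7 without pip2 replicate 1. At high humidity none of the 27 passed, and 0 was also the count in either direction there for both glucosinolate lists. A direct test of whether the genotype difference differed between the humidities passed for only 1 of the 27 jasmonate genes. It passed for 3 indole and 0 aliphatic glucosinolate genes. The missing calls at high humidity therefore do not by themselves show a difference between humidities.

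Indole glucosinolate genes rose together with them. Glucosinolates are sulfur-rich defence compounds of the mustard family, and the indole kind is built from tryptophan through CYP79B2 and CYP79B3, then CYP83B1, SUR1, UGT74B1 and the sulfotransferase SOT16, under the control of MYB34 and MYB51. Of 16 genes tested, 9 rose and none fell, with a median of 0.60. CYP79B2 had 12.6, 14.5 and 14.2 CPM in pip2, against 7.57, 4.91 and 6.6 CPM in col0 (1.11 ± 0.15, edgeR adjusted p = 0.000825). CYP83B1 had 68.6, 64.1 and 69.7 CPM in pip2, against 33.0, 34.6 and 46.6 CPM in col0 (0.83 ± 0.11, edgeR adjusted p = 0.000614). Every pip2 library was above every col0 library in both enzymes. IGMT5, which methylates the finished indole compound, had 9.87, 8.1 and 13.3 CPM in pip2, against 3.22, 4.17 and 3.9 CPM in col0 (1.47 ± 0.21, edgeR adjusted p = 0.00133). GSTF9, a glutathione transferase of the pathway, had 250.2, 245 and 259.8 CPM in pip2, against 172, 168 and 191 CPM in col0 (0.51 ± 0.07, edgeR adjusted p = 0.00138). The other members that rose were CYP79B3 by 1.36, MYB34 by 0.69, SOT16 by 0.46, SUR1 by 0.32 and UGT74B1 by 0.28. MYB51 had 0.938, 0.934 and 0.697 CPM in pip2, against 0.0489, 0.171 and 0.35 CPM in col0, and did not pass (edgeR adjusted p = 0.0668). Without any 1 low-humidity library, 7 to 9 of the genes passed.

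The aliphatic glucosinolate list, built on methionine, moved less: 3 of 23 genes rose, none fell, 22 values were positive and the median was 0.30. With the replicate block 5 of them passed. Its regulator MYB28 averaged 33.5 ± 0.945 CPM in pip2 and 24.5 ± 0.909 CPM in col0 (SD, n = 3 each), without overlap (0.45 ± 0.08, edgeR adjusted p = 0.0043). The side-chain oxygenases FMOGS-OX1 and FMOGS-OX2 rose by 2.2 ± 0.36 (edgeR adjusted p = 0.00334) and 0.38 ± 0.07 (edgeR adjusted p = 0.00522), and FMOGS-OX1 was at most 2.18 CPM in pip2. For the chain-elongation gene MAM1 (AT5G23010), the groups overlapped at 11.4, 11 and 10.8 CPM in pip2, against 8.8, 11.1 and 11.2 CPM in col0. Salicylate and immunity genes gave no call among 15 tested, although all 15 values were positive with a median of 0.43. WRKY70, a regulator of salicylate defence, had the smallest p of that list, at 30.1, 26.3 and 30.3 CPM in pip2, against 9.87, 17.3 and 17.1 CPM in col0 (edgeR adjusted p = 0.0731). With the replicate block it did, at 1.01 (edgeR adjusted p = 0.00255).

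Genes that protect dehydrating cells were partly higher. Of 29 dehydration and cold genes tested, 5 rose, none fell and the median was 0.14. RAB18, a dehydrin induced by abscisic acid (ABA), had 32.0, 40.4 and 27.3 CPM in pip2, against 12.8, 14.4 and 15.3 CPM in col0 (1.23 ± 0.16, edgeR adjusted p = 0.000487). NAC019, a stress-induced transcription factor, had 52.6, 54.1 and 53.0 CPM in pip2, against 22, 33.3 and 22.5 CPM in col0 (1.04 ± 0.20, edgeR adjusted p = 0.0109). GOLS1, which makes the protective sugar galactinol, rose by 0.81 ± 0.16 (edgeR adjusted p = 0.0113), and RD29A and CBF3 rose by 0.68 and 0.60. RAB18 passed whichever low-humidity library was left out and was the sole member to do so without col0 replicate 1. RD29A lost its call whichever of these libraries was left out. NAC019 lost its call without col0 replicate 1 or 3, and GOLS1 without pip2 replicate 1 or col0 replicate 1 or 2. When a low-humidity library other than col0 replicate 1 was left out, 2 or 3 members passed. Abundant members such as RD22 (AT5G25610) overlapped fully, at 579.9, 700.2 and 618 CPM in pip2, against 587, 701 and 577 CPM in col0. In proline metabolism, P5CS1, the rate-limiting enzyme of proline synthesis, had 218, 263 and 238 CPM in pip2, against 156, 153 and 155 CPM in col0 (0.64 ± 0.07, edgeR adjusted p = 0.000167). PRODH1, which breaks proline down, had 118.9, 129.7 and 140.4 CPM in pip2, against 239.7, 255 and 237 CPM in col0 (-0.91 ± 0.12, edgeR adjusted p = 0.000783). The synthesis gene was thus higher and the breakdown gene lower in every pip2 library. The ABA list itself was mixed, with 1 gene higher and 2 lower of 32 tested and a median of 0.02. BGLU18, which frees ABA from a stored form, rose by 0.47 ± 0.11 (edgeR adjusted p = 0.0298), and the ABA receptors PYL4 and PYR1 fell by 0.36 ± 0.06 (edgeR adjusted p = 0.00577) and by 0.40 ± 0.08 (edgeR adjusted p = 0.0116). BGLU18 lost its call when any low-humidity library except pip2 replicate 1 was left out, and PYR1 without pip2 replicate 1 or col0 replicate 2 or 3.

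Genes of cell wall growth were lower in pip2. Expansins and xyloglucan endotransglucosylases (XTH) loosen and remodel the wall of expanding cells, and EXORDIUM (EXO) is a growth gene induced by brassinosteroid, a growth hormone. Of 29 expansin and XTH genes tested, 7 fell and none rose, with a median of -0.36. XTH16 had 135, 149 and 148 CPM in pip2, against 334, 314 and 323 CPM in col0 (-1.17 ± 0.06, edgeR adjusted p = 2.76e-08). XTH9 had 1129, 1216 and 1249 CPM in pip2, against 1841, 1835 and 1903 CPM in col0 (-0.63 ± 0.08, edgeR adjusted p = 0.000269). XTH15 had 29.4, 33.7 and 30.8 CPM in pip2, against 54.7, 44.8 and 58.5 CPM in col0 (-0.75 ± 0.08, edgeR adjusted p = 0.000163). Each pip2 library was below each col0 library in these 3 genes and in XTH8, which fell by 0.98 ± 0.14 (edgeR adjusted p = 0.00115). XTH4, XTH6 and EXPA6 also fell, by 0.36 to 0.70. Of the 12 expansins, EXPA6 alone passed, at 274.7, 270.6 and 274.7 CPM in pip2, against 356, 352 and 348 CPM in col0, while the groups of EXPA1 and EXPA10 overlapped.

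EXO had 96.5, 107 and 111 CPM in pip2, against 330.2, 321 and 302 CPM in col0 (-1.60 ± 0.08, edgeR adjusted p = 2.76e-08). Of the 19 brassinosteroid and EXO-family genes tested, 6 fell and none rose: EXO, its relatives EXL1, EXL2, EXL3 and EXL5, and the brassinosteroid receptor BRI1. BRI1 had 175, 165 and 167 CPM in pip2, against 218, 203 and 209 CPM in col0 (-0.31 ± 0.05, edgeR adjusted p = 0.00311). The synthesis genes DWF4, CPD and DET2 overlapped between the genotypes. EXL1 lost its call when any low-humidity library except pip2 replicate 2 was left out. Several cell surface genes outside the lists also fell. FLA13 and FLA9 were named because they were among the lowest in the test between humidities, and LRX3 after its value was seen. These genes therefore do not show how their families moved as a whole. FLA13, a fasciclin-like arabinogalactan protein of the wall, stood at 14.9, 20.7 and 19.3 CPM in pip2, against 41.6, 54.7 and 47.7 CPM in col0 (-1.39 ± 0.14, edgeR adjusted p = 7.01e-05). Its relative FLA9 had 25.2, 27.2 and 28.5 CPM in pip2, against 62.8, 72.1 and 61.2 CPM in col0 (-1.28 ± 0.15, edgeR adjusted p = 0.00025). LRX3, an extensin that links wall and membrane during growth, had 55.5, 51.2 and 54.3 CPM in pip2, against 129.2, 134 and 115 CPM in col0 (-1.23 ± 0.08, edgeR adjusted p = 4.17e-07). Of 6 cellulose synthases of the primary wall, CESA6 alone fell, by -0.31 ± 0.06 (edgeR adjusted p = 0.00693).

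The cuticle is the waxy outer layer that slows water loss. Of 40 wax and cutin genes tested, 5 fell, none rose and 34 values were negative, with a median of -0.14. KCS20, an enzyme that lengthens fatty acids for wax, had 116, 125 and 118 CPM in pip2, against 160.4, 154 and 149 CPM in col0 (-0.37 ± 0.06, edgeR adjusted p = 0.00192). LTPG2, a lipid transfer protein that carries wax outward, fell by 0.40 ± 0.08 (edgeR adjusted p = 0.00855), and KCS1, KCS5 and CER4 fell by 0.27 to 0.42. Of the wax and cutin genes 8 passed with the replicate block, 2 passed without pip2 replicate 3, col0 replicate 1 or col0 replicate 3, and 3 without each other low-humidity library.

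**Figure D3:**
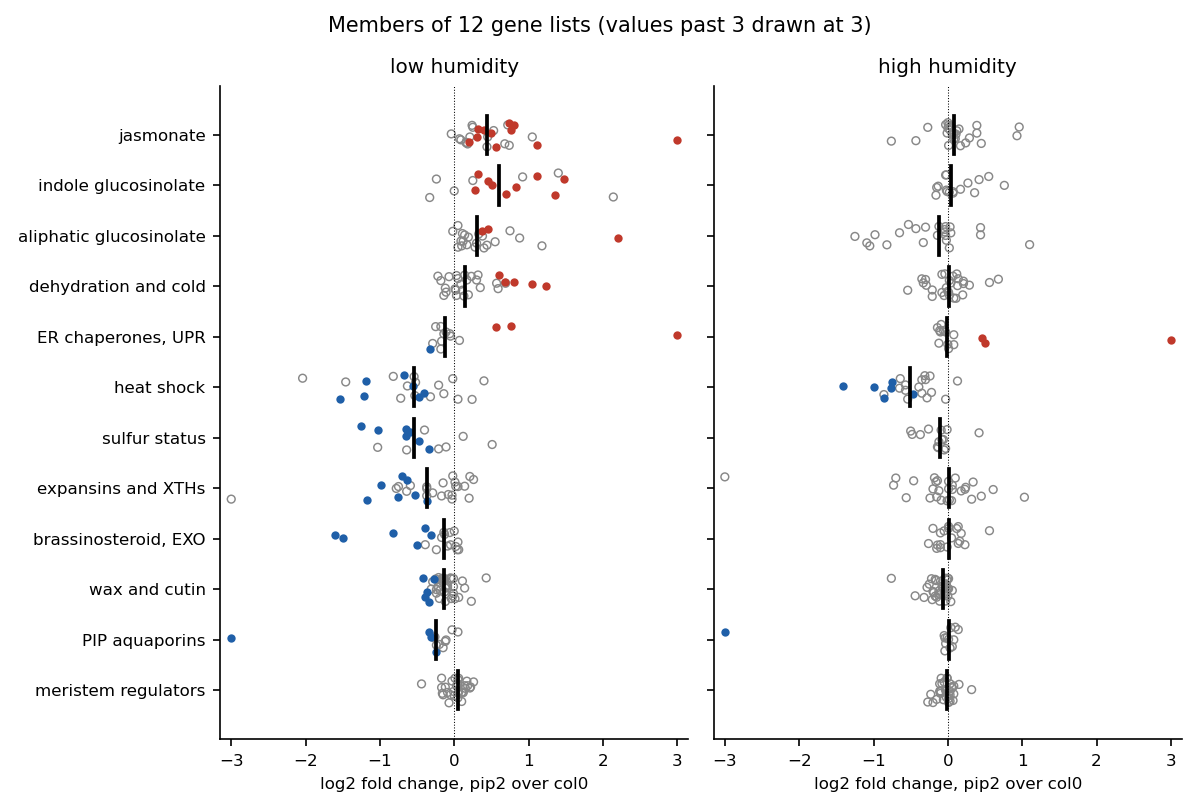
Log2 fold change of pip2 over col0 (horizontal axes) for the tested members of 12 gene lists (rows) at low humidity (left) and high humidity (right). Filled points passed the test, red when higher and blue when lower in pip2, open points did not, and black bars are medians. The jasmonate median lies at 0.44 at low and 0.08 at high humidity, the sulfur median at -0.53 and -0.11. The difference between humidities passed its own test for 1 jasmonate gene and 0 sulfur genes.

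Nutrient genes were lower in part. Sulfur assimilation supplies the sulfur of cysteine and of glucosinolates, with APS reductase (APR) as its controlling step. Of 14 sulfur-status genes tested, 7 fell and none rose, with a median of -0.53. APR2 had 23.0, 25.7 and 24.4 CPM in pip2, against 37.8, 34.9 and 41.9 CPM in col0 (-0.65 ± 0.09, edgeR adjusted p = 0.000844). APR3 had 51.5, 51.7 and 47.6 CPM in pip2, against 80.5, 70.2 and 75.9 CPM in col0 (-0.59 ± 0.10, edgeR adjusted p = 0.00438). SDI1, a repressor of glucosinolate synthesis that sulfur shortage induces, had 2.27, 1.97 and 1.49 CPM in pip2, against 4.74, 4.62 and 4.3 CPM in col0 (-1.25 ± 0.20, edgeR adjusted p = 0.00299). The related AT1G04770 fell by 0.65 ± 0.11 (edgeR adjusted p = 0.00473), and APR1, SHM7 and LSU3 fell by 0.34 to 1.02. Leaving out a low-humidity library left 5 to 8 calls. Nitrate reductase NIA2 had 46.3, 53.3 and 53.5 CPM in pip2, against 70.6, 74.2 and 68.8 CPM in col0 (-0.48 ± 0.07, edgeR adjusted p = 0.00155), and 3 of 17 nitrate genes fell in all, with NRT1.1 and GLU1. The number of nitrate genes that fell was 1 without pip2 replicate 1, pip2 replicate 3 or col0 replicate 2. NRT1.1 lost its call in these 3 cases, and GLU1 in these and without col0 replicate 1. Of 14 iron genes, 3 fell. The iron stores FER3, at 84.0, 105.5 and 96.9 CPM in pip2, against 151, 162 and 152 CPM in col0 (-0.70 ± 0.09, edgeR adjusted p = 0.000563), and FER1, at -0.68 ± 0.12 (edgeR adjusted p = 0.00528), were the larger of these, with the transporter YSL1 at -0.26. YSL1 lost its call whichever low-humidity library was left out, which left 2 iron genes.

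Lists of meristem identity and cell division hardly moved. None of 32 meristem and boundary regulators passed, with a median of 0.05, none of 22 DNA replication and histone genes passed, with a median of -0.08, and 1 of 28 cyclin and mitosis genes did. That gene, CYCD1;1, fell by 0.24 ± 0.06 (edgeR adjusted p = 0.0365) and lost its call under 9 of 14 alternatives. Of 27 floral identity and transition genes, SPL5, a promoter of flowering, fell, with 29.7, 30.2 and 30.0 CPM in pip2, against 45.7, 53.4 and 44.7 CPM in col0 (-0.68 ± 0.09, edgeR adjusted p = 0.000855). FT, the mobile flowering signal, which was named after its value was seen, was low, at 1.28, 1.92 and 1.49 CPM in pip2, against 5.23, 3.83 and 3.3 CPM in col0 (-1.40 ± 0.26, edgeR adjusted p = 0.00856), and its call was lost without pip2 replicate 1 or col0 replicate 1. Of 17 gibberellin genes 2 fell, both for enzymes that inactivate gibberellin, a growth hormone. They were GA2OX8, by 0.99 ± 0.17 (edgeR adjusted p = 0.00394), and GA2OX2, by 0.79 ± 0.14 (edgeR adjusted p = 0.00476). The listed relatives GA2OX1, GA2OX4 and GA2OX6 did not pass. Of 23 clock genes 1 fell, CHE, whose call held under the same 14 alternatives. Of 34 auxin genes 1 fell, IAA19, which lost its call when any low-humidity library except pip2 replicate 2 was left out, and 4 fell with the replicate block. Of 15 flavonoid genes 1 fell, TT7, which lost its call without pip2 replicate 1 or 3 or col0 replicate 2 or 3. Single calls made up 3.57% of the cyclin list, 3.7% of the floral list, 4.35% of the clock list and 2.94% of the auxin list. These shares were close to the 2.79% over all tested genes, so the counts do not set these lists apart. The flavonoid share was 6.67%. No gene passed among 23 touch and wound, 23 cytokinin, 17 vascular, 37 photosynthesis, 15 stomatal lineage, 9 terpene synthase, 14 sugar status, 12 hypoxia and 21 tapetum genes tested. With the replicate block 1 touch gene was higher and 2 were lower, 1 photosynthesis gene was higher and 1 lower, 2 sugar status genes were lower and 1 DNA replication gene was lower. Of the genes with the smallest p in these lists, that fit gave TCH4 of the touch list at -1.75 (edgeR adjusted p = 0.0177), RBCS1B of photosynthesis at -0.36 (edgeR adjusted p = 0.029), DIN10 of sugar status at -0.69 (edgeR adjusted p = 0.0144) and CDT1A of DNA replication at -0.29 (edgeR adjusted p = 0.0297). A list without a call does not show that its genes were alike in both genotypes.

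Markers of tissue makeup were compared as summed CPM. Inflorescence and floral meristem markers summed to 404 to 427 CPM in the pip2 libraries and 386.5 to 393 CPM in the col0 libraries, with all 8 tested markers short of the test. Nuclear photosynthesis genes summed to 38583 to 46874 CPM in pip2 and 40786 to 45656 CPM in col0. Vascular genes summed to 588 to 634 CPM in pip2 and 591 to 691 CPM in col0, and tapetum genes to 4259 to 5587 CPM in pip2 and 3618 to 5086 CPM in col0. Guard cell markers summed to 41.9 to 53.1 CPM in pip2 and 42.1 to 47.8 CPM in col0, and mature pollen markers to 920.3 to 1451 CPM in pip2 and 1088 to 1456 CPM in col0. Tapetum and pollen genes, which mark developing anthers, were thus detected in every library beside the meristem markers. The groups overlapped in all of these except the meristem markers. Root markers summed to 7.17 to 9.52 CPM in pip2 and 4.57 to 7.33 CPM in col0, and no seed storage gene passed the filter on low counts. The part of tissue makeup in the differences above was not tested.

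A run of 22 consecutive tested genes on chromosome 1, from ILA (AT1G64790) to Hrd1B (AT1G65040), was lower in pip2, and every gene in it passed the test. The log2 fold changes lay between -1.07 and -1.87, with a median of -1.61, and the median ratio of pip2 to col0 was 0.328. Summed over the run, the counts came to 1052, 1093 and 1064 CPM in the pip2 libraries, against 3285, 3386 and 3295 CPM in the col0 libraries, so the groups were far apart. G-TMT, which makes vitamin E, had 153, 177.5 and 156 CPM in pip2, against 461, 498 and 480.2 CPM in col0, a change of -1.56 ± 0.07 (edgeR adjusted p = 5.67e-09). SIGA, a sigma factor of chloroplast transcription, fell by 1.49, GTG1, a GPCR-type G protein, by 1.67, and Hrd1B, a homologue of a yeast and human ubiquitin ligase of ER protein breakdown, by 1.45. The 10 tested genes before the run held no call. The next gene after it, AT1G65050, had -1.06 ± 0.27 (edgeR adjusted p = 0.0542), the gene after that, 4CL3 of phenylpropanoid synthesis, fell by 1.68 ± 0.07 (edgeR adjusted p = 2.08e-09), and none of the next 8 passed. All 22 genes also fell at high humidity, with a median of -1.58. No other run of more than 2 neighbouring calls in 1 direction was found, and without the run 401 genes were lower. CYP89A2, CYP89A5 and CYP89A6 are close copies that may share reads, and AT1G08733 is annotated as antisense to G-TMT, so that reads of the pair cannot be told apart without strand information.

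**Figure D4:**
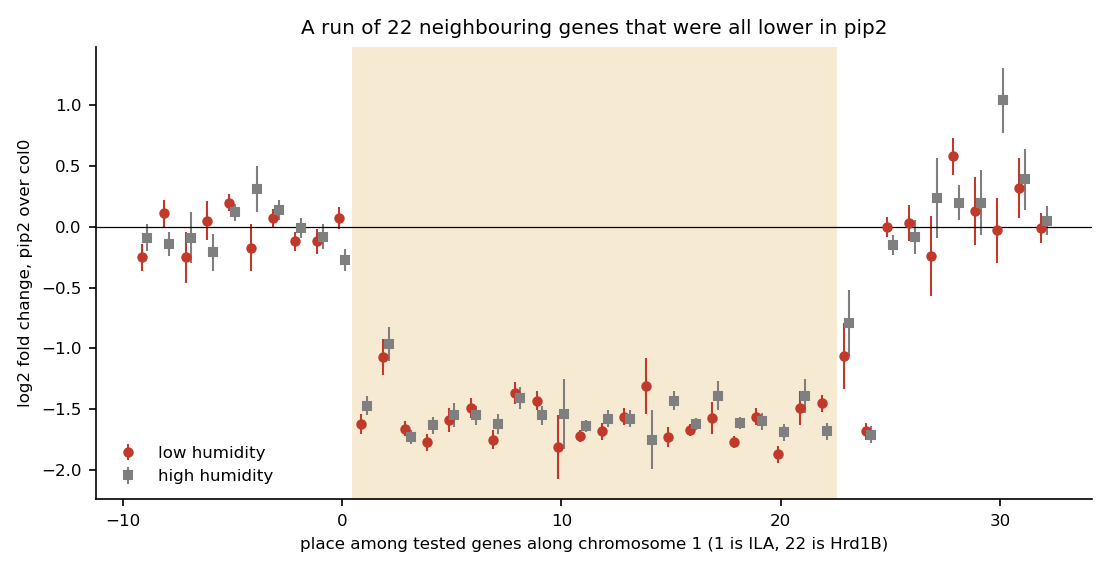
Log2 fold change of pip2 over col0 (vertical axis, bars are the SE of the fit) for tested genes in order along chromosome 1 (horizontal axis), at low humidity in red circles and at high humidity in grey squares. The shaded 22 genes lie between -1.07 and -1.87 at low humidity, and no gene outside it passed at low humidity except 4CL3 at -1.68.

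Several genes were close to silent in a single genotype. LIP1, a small GTPase gene linked to the light input of the clock, had 1.09, 1.45 and 1.19 CPM in pip2, against 46.4, 46.6 and 47.2 CPM in col0 (-5.23 ± 0.11, edgeR adjusted p = 3.23e-12). The long noncoding RNA AT1G06957 had 0 counts in all 3 pip2 libraries, against 6.55, 9.08 and 8.3 CPM in col0, which puts it at least 52.8-fold lower, with a floor of 3 counts per library. AT1G75945, an uncharacterized protein gene, was at 0, 0.0519 and 0.0996 CPM in pip2, against 12.5, 14.3 and 12.7 CPM in col0, and the noncoding RNA AT3G05955 at 0.0987, 0.0519 and 0 CPM in pip2, against 2.59, 4.05 and 4.05 CPM in col0. These 4 genes were also called lower at high humidity. At low humidity only the col0 libraries could carry AT1G06957, AT1G75945 and AT3G05955 past the filter on low counts. The opposite case, a gene silent in col0, could be missed, because genes without a count in col0 low replicate 1 are absent from the count table. The number of such genes in each genotype therefore cannot be compared. QQS, a gene known for wide natural variation in level between lines and for a role in starch content, had 7.8, 7.37 and 10.4 CPM in pip2, against 29.8, 44.4 and 35.3 CPM in col0 (-2.10 ± 0.22, edgeR adjusted p = 8.32e-05).

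The neighbouring ubiquitin-conjugating enzyme genes UBC12 and UBC11 moved in opposite directions. UBC12 had 4.39, 4.05 and 5.38 CPM in pip2, against 0.44, 0.0571 and 0.55 CPM in col0 (3.66 ± 0.37, edgeR adjusted p = 5.4e-05). UBC11 had 16.9, 18.3 and 16.8 CPM in pip2, against 38.1, 41.6 and 42.1 CPM in col0 (-1.23 ± 0.06, edgeR adjusted p = 4.1e-08). Both differences recurred at high humidity, at 3.76 and -1.13. HEI10, a ligase that promotes crossing-over in meiosis, had 10.3, 10.2 and 9.26 CPM in pip2, against 3.03, 3.31 and 3.85 CPM in col0 (1.54 ± 0.14, edgeR adjusted p = 1.46e-05), and 1.86 at high humidity. The wall-degrading polygalacturonases PGAZAT and QRT2, which act when organs and pollen grains separate, rose by 2.13 ± 0.34 (edgeR adjusted p = 0.00273) and 1.78 ± 0.33 (edgeR adjusted p = 0.00866). The purple acid phosphatases PAP19 and PAP14 rose by 2.21 and 1.47, and FAMT, a methyltransferase, by 1.96. The noncoding RNAs AT3G05945 and AT2G05914 rose by 2.2 and 1.81.

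Set beside the difference at high humidity, the low-humidity difference took in more genes. At high humidity 102 of the same 21897 genes passed (0.466%), 35 higher (0.16%) and 67 lower (0.306%), from libraries that share none with the low-humidity comparison. Of the 610 genes called at low humidity, 84 (13.8%) also passed at high humidity in the same direction, which is 82.4% of the high-humidity calls, and no gene passed in opposite directions. Without the chromosome 1 run the overlap was 62 genes. The 610 genes had a median size of 0.49 on the log2 scale at low humidity, where they were chosen, and 0.13 at high humidity. At high humidity 467 of them (76.6%) had the same sign as at low humidity. A test of the difference between the 2 humidities, the genotype by humidity interaction, passed for 77 genes (0.352%), 67 of them more negative (0.306%) and 10 more positive (0.0457%) at low humidity. Leaving out 1 of the 12 libraries brought that count to between 25 and 65, and the replicate block to 163. In the main fit 72 of the 610 genes passed this interaction test, so most of the 610 were not shown to differ between humidities. EXO gave -1.34 ± 0.11 in this test (edgeR adjusted p = 0.000169), with -0.26 ± 0.08 at high humidity, and XTH16 gave -1.15 ± 0.08 (edgeR adjusted p = 4.82e-05), with -0.01 ± 0.06 at high humidity. PRODH1 gave -1.16 ± 0.17 (edgeR adjusted p = 0.0118), with 0.25 ± 0.12 at high humidity, and CYP83B1 gave 0.85 ± 0.15 (edgeR adjusted p = 0.0344), with -0.02 ± 0.11 at high humidity. The genes of wall growth, proline breakdown and indole glucosinolates in this list therefore differed between genotypes more at low than at high humidity. For BIP3, BZIP60, HSFA2, HSP70 and QQS the interaction did not pass.

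**Figure D5:**
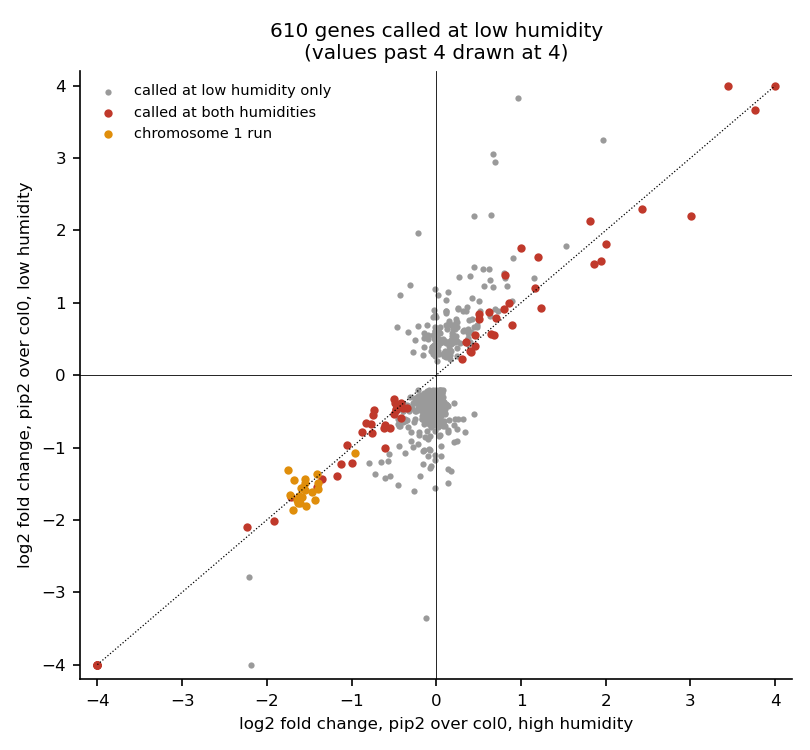
Log2 fold change of pip2 over col0 at low humidity (vertical axis) against that at high humidity (horizontal axis) for the 610 genes called at low humidity, with values past 4 drawn at 4 and a dotted line where both are equal. The 22 genes of the chromosome 1 run (orange) and the other genes called at both humidities (red) lie near the line, and most of the rest (grey) lie near 0 at high humidity. A grey point near 0 does not by itself show a difference between humidities.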

How the data were processed

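RNA of inflorescence meristems was sequenced in 12 libraries, 3 for each genotype and humidity, and groups were taken from the sample labels. The authors deposited a table of raw read counts per gene and a table of TPM values. Per the submitters' processing notes, the tools were Trimmomatic 0.39, HISAT2 2.2.1 and featureCounts 2.0.6 with the TAIR10 genome, and none of the sources states a strand setting. The deposited counts were tested with edgeR 4.0.16 (R 4.3.3, limma 3.58.1) by its quasi-likelihood test with TMM scaling on all 12 libraries, 1 mean per group, after filterByExpr (minimum count 10, total 15), with Benjamini-Hochberg adjustment over all 21897 genes tested and a threshold of 0.05. Fitting all groups together shares 1 estimate of the spread, a biological coefficient of variation of 10.3%. CPM values are counts scaled to a common library size with the TMM factors. Log2 fold changes are pip2 minus col0 from the edgeR fit, and SE is the standard error implied by the F statistic. A prior count of 2 was used for log2 CPM in the comparison of libraries and not for the fold changes. The authors' TPM values served only to compare levels between genes. Counting precision limits genes under about 1 CPM. Of 25424 gene identifiers, 25326 matched the RefSeq table, which gave names and promoters (TAIR10.1). The fits were tested on simulated counts.

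The members and gene lists were chosen with earlier results of these data known. Named genes were PIP2;5, the 12 highest and 12 lowest with a symbol and the 3 of each without among genes past the threshold, at a mean of at least 1 CPM and with no overlap, up to 4 genes of each list by adjusted p, the 5 highest and 5 lowest of the interaction, and the chromosome 1 run. Other list members are named where whole lists are described. The ER stress elements, GAGACA and the lowest genes outside the run were chosen after the values were seen. Same-numbered pip2 and col0 libraries deviated together at low humidity (correlations 0.205, 0.158 and 0.205 of deviations from the group means), so the numbers were taken as pairs from the data and the numbers in the labels, and a fit with that replicate block was an alternative. Over all pairs of groups, same-numbered libraries gave -0.03 to 0.38 and differently numbered ones -0.371 to 0.219. The pairing was thus less clear there, and the block rests partly on the same data as its counts. The other alternatives were DESeq2 1.42.0, other scalings and filters, the low-humidity libraries alone, and leaving out each library.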

Additional observations from a re-analysis of the deposited data

Results flagged for a closer look

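For 18 named genes the genotype difference at low humidity differed from that at high humidity by the interaction test in edgeR (adjusted p under 0.05). Each value is the log2 difference of pip2 over col0 at low humidity minus that at high humidity. More negative at low humidity were the growth genes EXO at -1.34, EXL5 at -0.62 and EXL3 at -0.55, the wall enzymes XTH16 at -1.15, XTH15 at -1.0, XTH9 at -0.68 and XTH8 at -1.03, the wall glycoproteins FLA9 at -1.21, FLA13 at -1.20, AGP7 at -1.18 and LRX3 at -1.07, and the proline breakdown gene PRODH1 at -1.16. More positive at low humidity were the indole glucosinolate genes CYP83B1 at 0.85, CYP79B2 at 1.09 and GSTF9 at 0.54, the thionin THI2.2 at 1.55, the beta-glucosidase BGLU9 at 0.62 and the lipoxygenase LOX3 at 0.59. Some of these genes, FLA9 and FLA13 among them, were named because they were among the highest or lowest in this same test. That they passed it follows largely from the choice. Over all genes the count passing this test fell from 77 to between 25 and 65 when a library was left out. LOX3 lost its low-humidity call when any low-humidity library except pip2 replicate 1 was left out. Groups of 3 libraries are too small for a test of outlying samples.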

How the results depend on the processing

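The low-humidity count of 610 genes became 974 with the replicate block and 1031 in a fit of the low-humidity libraries alone with that block, a setting added after seeing the data. Without 1 low-humidity library it was 362 to 460, with the count moved by over 1.5 times without pip2 replicate 1, col0 replicate 1 or col0 replicate 3. DESeq2 gave 861. The interaction count of 77 became 183 with DESeq2, 163 with the replicate block and 25 to 65 without a library. The high-humidity count of 102 became 240 with DESeq2, 276 with the replicate block, 67 to 111 without a high-humidity library and 95 to 141 without a low-humidity library, which share the estimate of the spread. Upper-quartile scaling gave 578 low-humidity calls, 37.9% of them higher in pip2, against 30.7% with TMM. No scaling moved the median of all genes by more than 0.0259. Of 112 named genes that passed, 91 kept the call under every alternative counted here. These were the other settings and leaving out each low-humidity library, and leaving out a high-humidity library was not counted. Without some low-humidity library 21 named genes lost the call, 5 of these also under another setting, and none reversed. The cause of these shifts was not tested. Differences under 0.20 on the log2 scale were not called at this depth and replicate number.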
